A study of Mus musculus with 12 samples.

Results

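The nuclear genes for the respiratory chain and ATP synthase were examined for chromatin accessibility in germinal center B cells with and without Pbrm1. The members are autosomal peaks whose midpoint lies within 1 kb of either end of a protein-coding gene whose symbol starts with Nduf, Uqcr, Atp5, Cox4, Cox5, Cox6, Cox7 or Cox8, or is Sdha, Sdhb, Sdhc, Sdhd, Cycs or Cyc1. This gave 126 peaks of 501 bp at 80 of 95 autosomal genes, out of 68689 peaks in all, of which 67159 are autosomal. The table may not hold every peak of the study, so a gene or marker without a peak in it is not shown to be closed. Another 3 genes of the rule lie on the X chromosome and were left out of the counts. Accessibility was read by Omni-ATAC-seq, where open DNA is tagged by the Tn5 transposase, in splenic germinal center B cells of C57BL/6 mice that were 8 to 10 weeks old. The groups, with 3 libraries each, were Pbrm1-/- CB, Pbrm1+/+ CB, Pbrm1-/- CC and Pbrm1+/+ CC, and the labels call the genotypes HOMO and WT. The product of Pbrm1 is found in PBAF, 1 form of the SWI/SNF remodeling complex, and the question put was how its loss changes accessibility. The labels do not spell out the letters CB and CC or say which part of Pbrm1 was removed, and the prefix Pbrm1AID of the count columns is not explained there. Whether the 3 libraries of a group are separate mice is not stated, so p-values measure the spread between these libraries, which may be partly technical.

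Oxidative phosphorylation passes electrons from NADH through complex I, or from succinate through complex II, to coenzyme Q, then through complex III, cytochrome c and complex IV to oxygen. Complexes I, III and IV pump protons across the inner mitochondrial membrane, and ATP synthase, also called complex V, uses the return flow to make ATP. Most subunits are encoded in the nucleus, and their compact promoters often carry sites for NRF1, for the ETS factor GABP and for YY1. B cells in the germinal center divide rapidly after meeting antigen and are known to rely on oxidative phosphorylation.

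Counts per library totalled 6431354 to 45590454, and the HOMO libraries numbered 1 were the shallowest of their groups. All 7 germinal center B cell markers and all 5 B cell markers had a peak at a gene end, against 2 of 7 T cell, 1 of 6 myeloid, 2 of 5 erythroid and 1 of 5 natural killer cell markers. WT CB replicate 2 and WT CC replicate 2 stood apart at a peak in Xist, at 0.458 and 0.782 CPM (counts scaled to library size with TMM factors), against 4.73 to 17.2 CPM in the other 10 libraries. At another Xist peak these 2 libraries were at 3.89 and 5.06 CPM, against 4.88 to 9.39 CPM in the other 10, so WT CC replicate 2 did not stand apart there. Peaks within 1 kb of a gene end took 43.3 to 44.9% of counts in HOMO CB, 44.7 to 47.6% in WT CB, 42.6 to 43.6% in HOMO CC and 44.0 to 46.0% in WT CC, so this share was lower in HOMO than in WT of the same sort except for HOMO CB replicate 1. The knockout itself was not checked here, since a peak outside the removed part of Pbrm1 would check nothing.

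Of the 80 genes, 67 had a promoter window in the RefSeq table (GRCm38.p6), which runs from 250 bases before to 50 bases after the listed start. The NRF1 core GCATGCGC, read on both strands, stood in 12 of the 67 windows (17.9%), against 6.13% of 5987 other genes with a peak centred on their listed start and 3.6% of all 16390 other genes. The YY1 letters AAGATGG stood in 11 windows (16.4%), against 7.2% and 6.38%, and 9 of their 11 matches began within 50 bases after the start. The ETS core CCGGAAG stood in 17 windows (25.4%), against 21.3% and 12.2%. The SP/KLF letters GGGCGG stood in 31 windows (46.3%), against 70.9% of other genes with a start peak and 47.3% of all other genes. TGACGT (CRE), CACGTG (E-box) and CCAAT stood in 14.9%, 5.97% and 46.3% of the member windows, against 13.1%, 11% and 40.7% of other genes with a start peak. No motif contains another, and a match describes letters only.

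The 6 windows printed here are from RefSeq, 5′ to 3′ on the gene's strand, with matches to the NRF1, ETS and YY1 letters in capitals and those to the other 4 motifs left in lower case. Ndufa8 and Ndufa6 are shown because a peak inside each gene was lower in HOMO libraries while the peak on this window was not called, and both hold the NRF1 core, at positions -8 and -83 from the start. Ndufa3 and Atp5md are shown because the peak that covers the window was itself lower in HOMO CB. Ndufa3 holds the YY1 letters at position 22, within its first transcribed bases, and Atp5md holds the ETS core read on the opposite strand (CTTCCGG) at position 2. Cycs, the gene for cytochrome c and a target of NRF1 known from rat, holds the NRF1 core at position -60 and was not called in any comparison. Atp5c1, whose inner peak gave the smallest p-value of the members in CB, holds none of the NRF1, ETS or YY1 letters in this window.
Ndufa8 (chr2:36049289-36049588, strand -): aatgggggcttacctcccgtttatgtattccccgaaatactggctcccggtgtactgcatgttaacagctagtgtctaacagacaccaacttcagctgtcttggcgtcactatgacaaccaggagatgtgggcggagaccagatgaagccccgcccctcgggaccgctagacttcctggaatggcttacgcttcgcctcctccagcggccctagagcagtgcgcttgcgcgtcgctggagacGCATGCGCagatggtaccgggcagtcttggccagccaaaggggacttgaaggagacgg
Ndufa6 (chr15:82354242-82354541, strand -): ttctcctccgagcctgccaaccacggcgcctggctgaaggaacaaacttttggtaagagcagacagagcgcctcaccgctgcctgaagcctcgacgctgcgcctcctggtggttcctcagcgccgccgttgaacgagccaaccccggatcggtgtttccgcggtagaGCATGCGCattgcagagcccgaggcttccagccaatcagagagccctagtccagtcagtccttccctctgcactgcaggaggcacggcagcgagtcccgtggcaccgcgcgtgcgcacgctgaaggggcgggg
Ndufa3 (chr7:3617123-3617422, strand +): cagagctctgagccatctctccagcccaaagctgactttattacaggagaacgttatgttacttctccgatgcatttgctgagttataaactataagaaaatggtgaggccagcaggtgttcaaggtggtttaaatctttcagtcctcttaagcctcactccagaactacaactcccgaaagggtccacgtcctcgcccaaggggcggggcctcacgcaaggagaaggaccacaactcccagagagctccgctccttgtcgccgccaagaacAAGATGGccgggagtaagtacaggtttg
Cycs (chr6:50566520-50566819, strand -): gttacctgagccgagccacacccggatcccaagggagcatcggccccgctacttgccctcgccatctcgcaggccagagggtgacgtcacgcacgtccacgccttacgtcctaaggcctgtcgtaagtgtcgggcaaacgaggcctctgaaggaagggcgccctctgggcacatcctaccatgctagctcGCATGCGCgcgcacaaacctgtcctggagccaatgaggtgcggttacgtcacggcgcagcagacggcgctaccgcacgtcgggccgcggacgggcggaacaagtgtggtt
Atp5c1 (chr2:10080461-10080760, strand -): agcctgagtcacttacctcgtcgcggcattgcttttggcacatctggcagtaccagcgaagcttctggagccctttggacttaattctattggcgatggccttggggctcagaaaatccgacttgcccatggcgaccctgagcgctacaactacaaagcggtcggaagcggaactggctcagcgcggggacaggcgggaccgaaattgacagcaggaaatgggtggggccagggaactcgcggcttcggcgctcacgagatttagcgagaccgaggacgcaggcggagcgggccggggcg
Atp5md (chr19:47090598-47090897, strand -): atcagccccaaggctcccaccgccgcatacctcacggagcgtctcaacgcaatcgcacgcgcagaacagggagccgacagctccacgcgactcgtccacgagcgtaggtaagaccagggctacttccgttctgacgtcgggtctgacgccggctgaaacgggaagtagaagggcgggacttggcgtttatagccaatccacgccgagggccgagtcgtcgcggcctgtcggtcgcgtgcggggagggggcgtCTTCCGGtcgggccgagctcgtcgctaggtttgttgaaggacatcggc

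The members took a smaller share of all counts in HOMO than in WT libraries of both sorts. They took 0.38, 0.371 and 0.372% in HOMO CB replicates 1 to 3, against 0.394, 0.401 and 0.419% in WT CB replicates 1 to 3. They took 0.376, 0.362 and 0.365% in HOMO CC replicates 1 to 3, against 0.392, 0.386 and 0.403% in WT CC replicates 1 to 3. The groups did not overlap in either sort, but the gene-end peaks of all genes also took a smaller share in HOMO, as given above. In bulk cells, fewer cells with an open site and less opening per cell cannot be told apart.

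**Figure D1:**
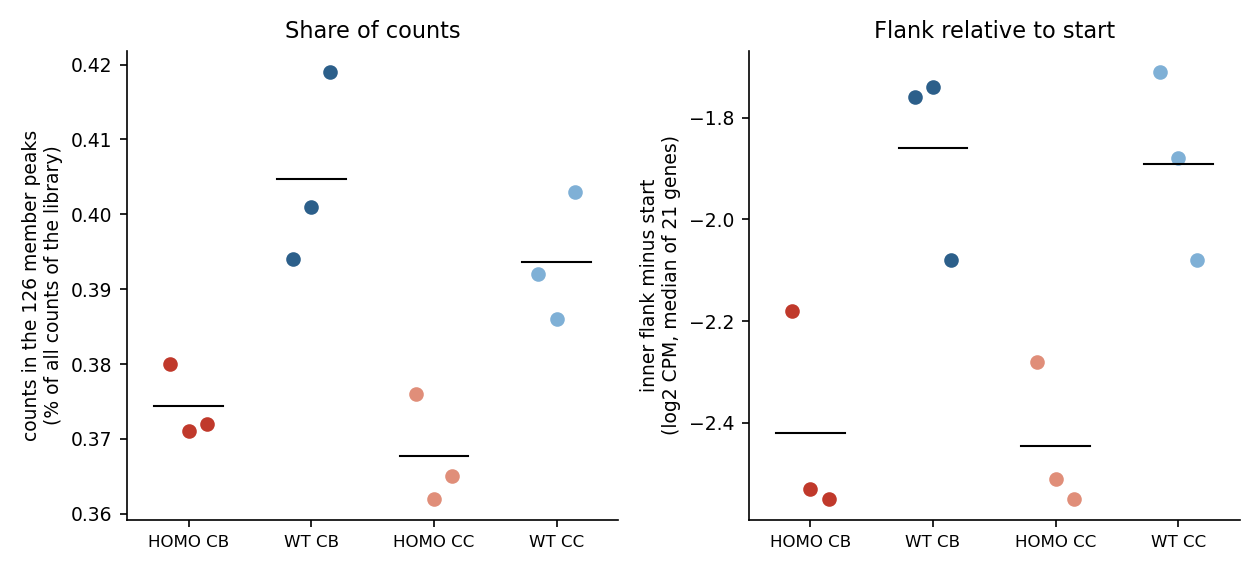
Left, the share of each library's counts that fell in the 126 member peaks (%, vertical axis); right, the median over 21 genes of the log2 CPM of the inner flank peak minus that of the start-centred peak of the same gene. Points are libraries and bars are group means (3 libraries each); the vertical axes do not start at 0. In both panels every HOMO library lies below every WT library of the same sort (0.371 to 0.38% in HOMO CB against 0.394 to 0.419% in WT CB).

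In CB, 16 of the 126 member peaks, at 14 genes, fell in HOMO and none rose, by edgeR's quasi-likelihood test with Benjamini-Hochberg adjustment over all peaks at 0.05. That is 12.7% of the members, against a background of 3.85% of all peaks called lower and 0.779% called higher, but 9.24% of the 15555 other autosomal peaks at gene ends were also called lower. The median log2 fold change of the members was -0.19, against 0.01 for all peaks and -0.11 for the other gene-end peaks, and 106 of the 126 values lay below 0. In 50 members (39.7%) every HOMO CB library lay below every WT CB library, against 13.2% of all peaks. Of the 15555 other gene-end peaks, 4030 lay below in this way. In 1 member every HOMO CB library lay above, against 7060 of all 68689 peaks and 575 of the other gene-end peaks. With TMM factors computed on gene-end peaks alone, which moved the median of all peaks by 0.117, the members' median was -0.07 and 4 were called lower and 2 higher, so the size of the shift and the one-sided split depend on the scaling. The count also rested on single libraries. It was 1 without HOMO CB replicate 2 and 2 without WT CB replicate 1. It was 4 without HOMO CB replicate 3 and 7 without both WT libraries numbered 2. The share of all peaks called lower fell too, to 0.445%, 0.882%, 0.983% and 2.05% in the order of these fits.

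In CC, 7 members at 7 genes fell in HOMO and none rose, and all 7 were also among those called in CB. That is 5.56% of the members, against 2.17% of all peaks called lower and 0.578% called higher, and 5.66% of the other gene-end peaks called lower. The median log2 fold change was -0.11, against 0.02 for all peaks and -0.07 for other gene ends, and it was -0.04 with TMM factors from gene-end peaks alone. In 35 members (27.8%) every HOMO CC library lay below every WT CC library, against 11.2% of all peaks. Of the 15555 other gene-end peaks, 3420 lay below in this way. In 3 members every HOMO CC library lay above, against 6736 of all 68689 peaks and 842 of the other gene-end peaks. The count was 0 without HOMO CC replicate 2 and 1 without HOMO CC replicate 3 or without WT CC replicate 1. It was 2 without WT CC replicate 2, 1 without both WT libraries numbered 2 and 16 without both HOMO libraries numbered 1. The share of all peaks called lower was 0.016%, 0.258%, 0.409%, 0.702%, 0.355% and 4.66% in the order of these fits. The difference of the genotype effects between the sorts was called in 0 of 126 members and in 0.0% of all peaks by edgeR's quasi-likelihood test, with 0 members at an unadjusted p under 0.05 (810 of all peaks) and 0 calls by DESeq2, which does not show that the effects were equal.

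Marker levels also moved with the genotype. The summed level of the 5 B cell markers was higher, at 349 to 360 CPM in HOMO CB, against 319 to 330 CPM in WT CB, and at 314 to 380 CPM in HOMO CC, against 299 to 309 CPM in WT CC, and 1 of their 9 peaks, at Ms4a1 in CC, was called (log2 0.60, edgeR adjusted p = 0.03). The germinal center B markers summed to 295 to 304 CPM in HOMO CB, against 278 to 305 CPM in WT CB, and to 266 to 284 CPM in HOMO CC, against 246 to 268 CPM in WT CC. The summed levels of the lists for CB and for CC cells (4 and 5 genes) overlapped between genotypes in both sorts. Of the 9 peaks of the list for CB cells, 1 was called lower in HOMO by edgeR in both sorts. In each sort 5 of these 9 peaks lay below 0. Of the 13 peaks of the list for CC cells, 0 were called. The summed level of the 2 T cell marker genes with a peak (Cd3d and Cd4) was 21.1 to 23.8 CPM in HOMO CB, against 26.8 to 31.0 CPM in WT CB, and 24.2 to 26.4 CPM in HOMO CC, against 29.2 to 30.9 CPM in WT CC. Of this pair Cd4 fell (log2 -1.35 in CB and -1.02 in CC, edgeR adjusted p = 0.00355 and 0.0228), and Cd3d was at -0.16 and -0.08 and was not called. Cd14, the only myeloid marker with a peak, was at 0.976 to 1.96 CPM in HOMO CB, against 2.95 to 3.76 CPM in WT CB, and at 1.41 to 1.77 CPM in HOMO CC, against 3.02 to 5.12 CPM in WT CC. At Klf1, of the erythroid list, the log2 fold change of HOMO over WT was -0.64 in CB (edgeR adjusted p = 0.0421) and -0.51 in CC (edgeR adjusted p = 0.137). Prf1, of the natural killer list, was at 0.83 to 1.31 CPM in HOMO CB, against 1.15 to 2.54 CPM in WT CB, and at 1.03 to 2.37 CPM in HOMO CC, against 2.39 to 3.67 CPM in WT CC. Defining markers such as Cd3e, Trac, Lyz2, Csf1r, Hba-a1 and Ncr1 had no gene-end peak in the table used here. The part of other cells in the members' values was not tested.

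The members that fell lay mostly inside their genes, next to the start rather than on it. By position, 64 member peaks were centred within 150 bp of a start (9 of them at an end whose strand is not in the promoter table), 28 lay 400 to 1000 bp inside the gene (here called inner flanks), 10 lay as far outside it, 16 lay between these limits and 8 were nearest a 3′ end. Of the 28 inner flanks, 10 fell in HOMO CB and 7 in HOMO CC, with median log2 fold changes of -0.47 in CB and -0.49 in CC. Of the 64 start-centred peaks, 4 fell in HOMO CB and 0 in HOMO CC, with medians of -0.13 and -0.06. In CC, 11 of the 64 had an unadjusted p under 0.05 in edgeR, against 11795 of all 68689 peaks, and DESeq2 called 0. The outer flanks gave 2 lower calls in CB and 0 in CC, where DESeq2 gave 2. These position limits were chosen after the effects had been seen, so the split is a description.

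**Figure D2:**
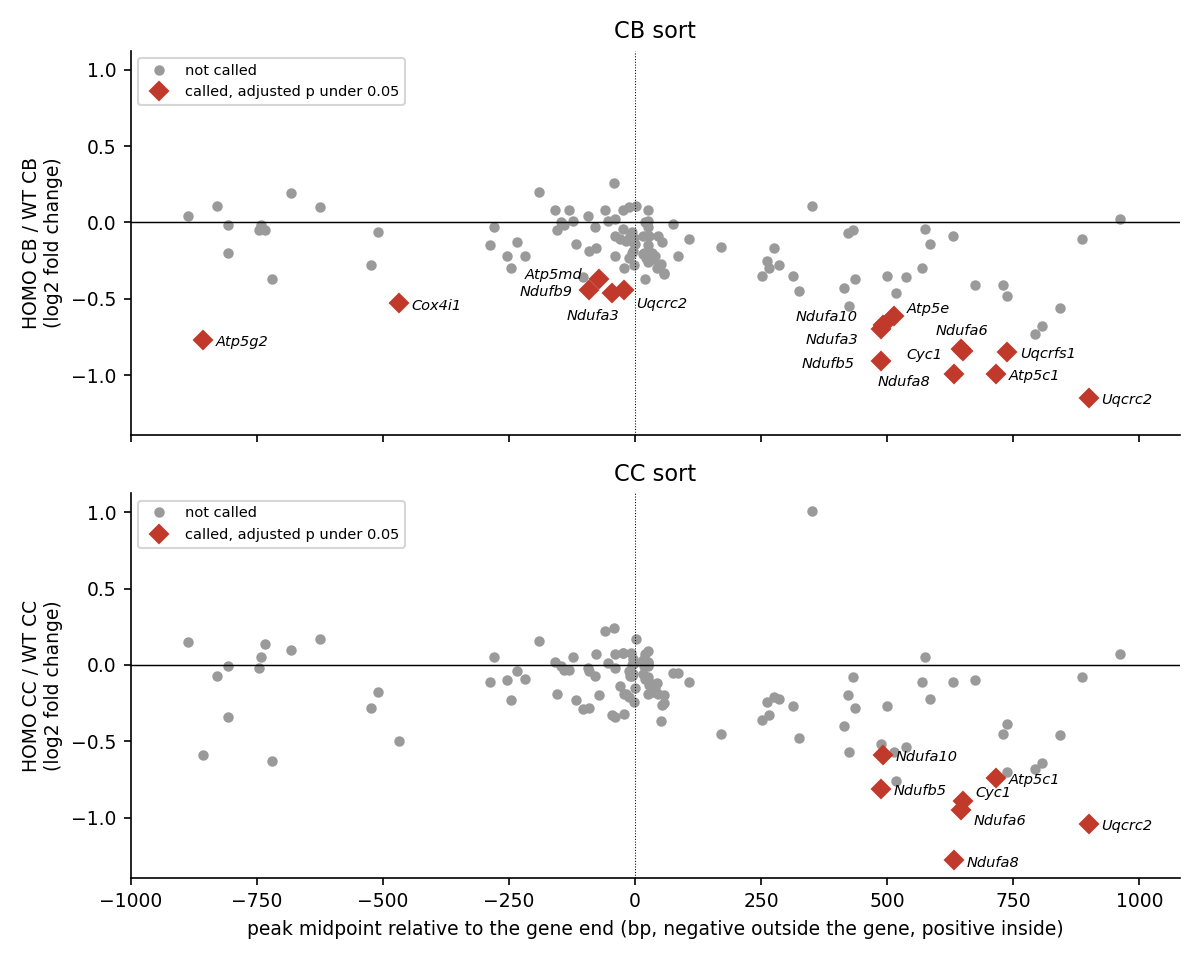
The log2 fold change of HOMO over WT (vertical axis) for the 126 member peaks against the distance of the peak midpoint from the nearest gene end in bp (horizontal axis, positive inside the gene), in CB above and CC below. Red diamonds are peaks called at an adjusted p under 0.05, named by gene, and grey points are the rest. Called peaks lie mainly 487 to 900 bp inside the gene. Of the 64 start-centred peaks, 52 lie below 0 in CB and 4 are called there, with a median of -0.13.

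Within 21 genes that had both a start-centred and an inner flank peak, the flank's fold change lay below the start's in 20 genes in CB and in 20 in CC. The median was -0.61 at the flank and -0.15 at the start in CB, and -0.57 and -0.08 in CC. By library, the median log2 difference of flank minus start was -2.18, -2.53 and -2.55 in HOMO CB replicates 1 to 3, against -1.76, -1.74 and -2.08 in WT CB replicates 1 to 3. It was -2.28, -2.51 and -2.55 in HOMO CC replicates 1 to 3, against -1.71, -1.88 and -2.08 in WT CC replicates 1 to 3. Flank and start are read within one library, and the same scaling factor applies to both. Their levels differ, at a median log2 CPM of 5.16 at the start and 2.96 at the flank. The part of other differences between libraries was not tested. No HOMO library overlapped a WT library of its sort, but the position limits were chosen after the effects had been seen. In both sorts the shallow HOMO library numbered 1 lay nearest the WT values. The part of depth in this contrast was not tested.

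The same pattern was present at other genes. Among 2345 other gene ends with such a pair, the medians were -0.33 at the flank and -0.05 at the start in CB and -0.31 and -0.01 in CC, and the flank lay below the start in 81.4% of them in CB and 83.9% in CC. Member flanks were weaker sites, at a median log2 CPM of 2.96 against 3.95 at other genes. At flanks with a log2 CPM of 2 to 4, 20 member pairs had medians of -0.58 in CB and -0.56 in CC, against -0.52 and -0.49 in 1125 other pairs. In that range 9 of 20 member flanks (45.0%) were called lower in CB, against 31.2% of the other flanks, and 6 (30.0%) in CC, against 23.8%. No test of this difference was run, and the flank pattern is not called particular to respiratory genes.

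**Figure D3:**
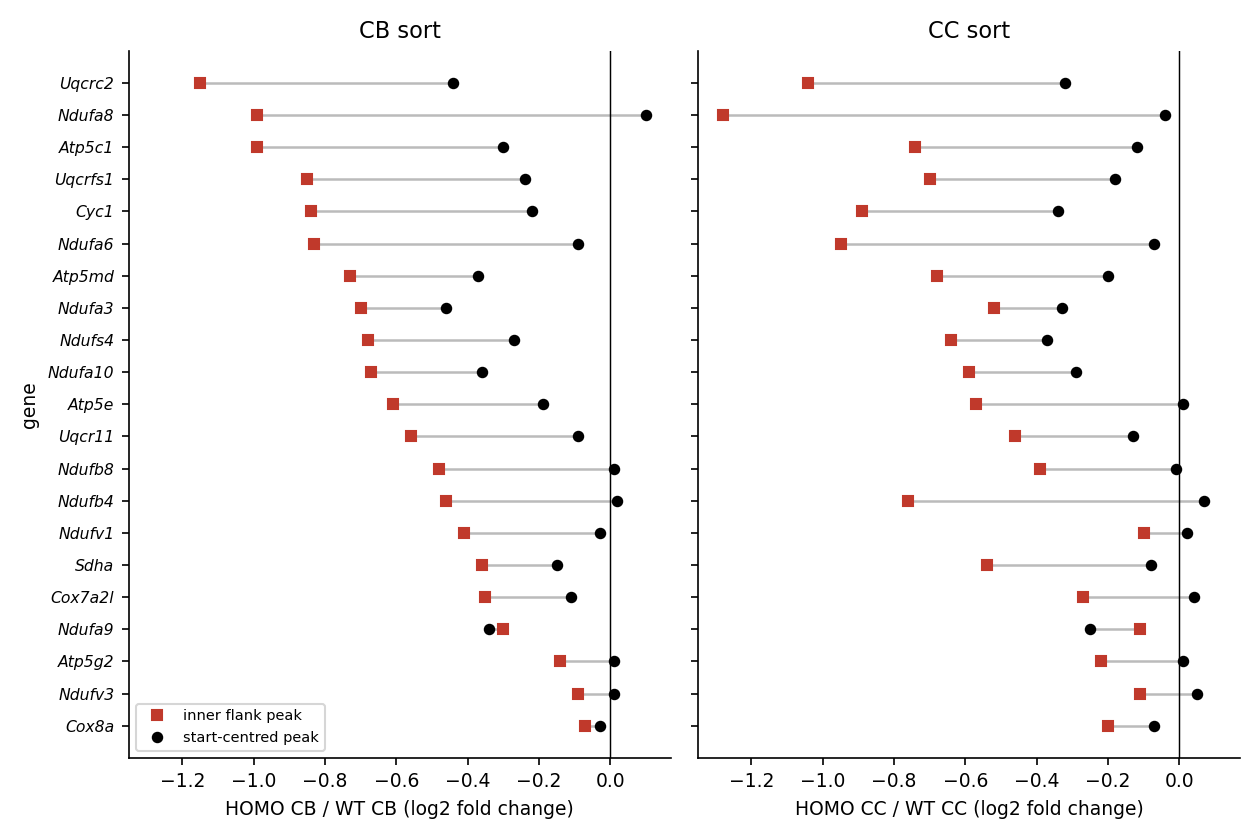
The log2 fold change of HOMO over WT (horizontal axis) at the start-centred peak (black circles) and the inner flank peak (red squares) of each of 21 genes, joined by a line, in CB (left) and CC (right); genes are ordered by the flank in CB. The flank lies left of the start in 20 of 21 genes in each sort, with Uqcrc2 (-1.15 in CB) and Ndufa8 (-1.28 in CC) farthest left.

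By role, the calls in CB were 0 of 7 complex I core peaks, 7 of 46 complex I accessory peaks, 0 of 13 complex I assembly peaks, 0 of 6 complex II peaks, 4 of 14 complex III peaks, 0 of 1 cytochrome c peak, 1 of 17 complex IV peaks and 4 of 22 ATP synthase peaks, all lower. In CC they were 4 accessory, 2 complex III and 1 ATP synthase peaks. The unadjusted p in edgeR was under 0.05 in CB for 2 of the 7 core, 5 of the 13 assembly and 2 of the 6 complex II peaks. Of all 68689 peaks, 13550 were under it. DESeq2 called 18 members in CB, all lower, against 4.84% of all peaks called lower. It called 0 core, 0 assembly, 0 complex II and 0 cytochrome c peaks. Median log2 fold changes in CB ran from -0.26 for complex III through -0.23 for ATP synthase, -0.22 for the assembly factors, -0.18 for complex II, -0.15 for the accessory subunits and -0.11 for complex IV to -0.03 for the complex I core. The differences between roles were not tested, and roles differ in how many inner flanks they hold.

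**Figure D4:**
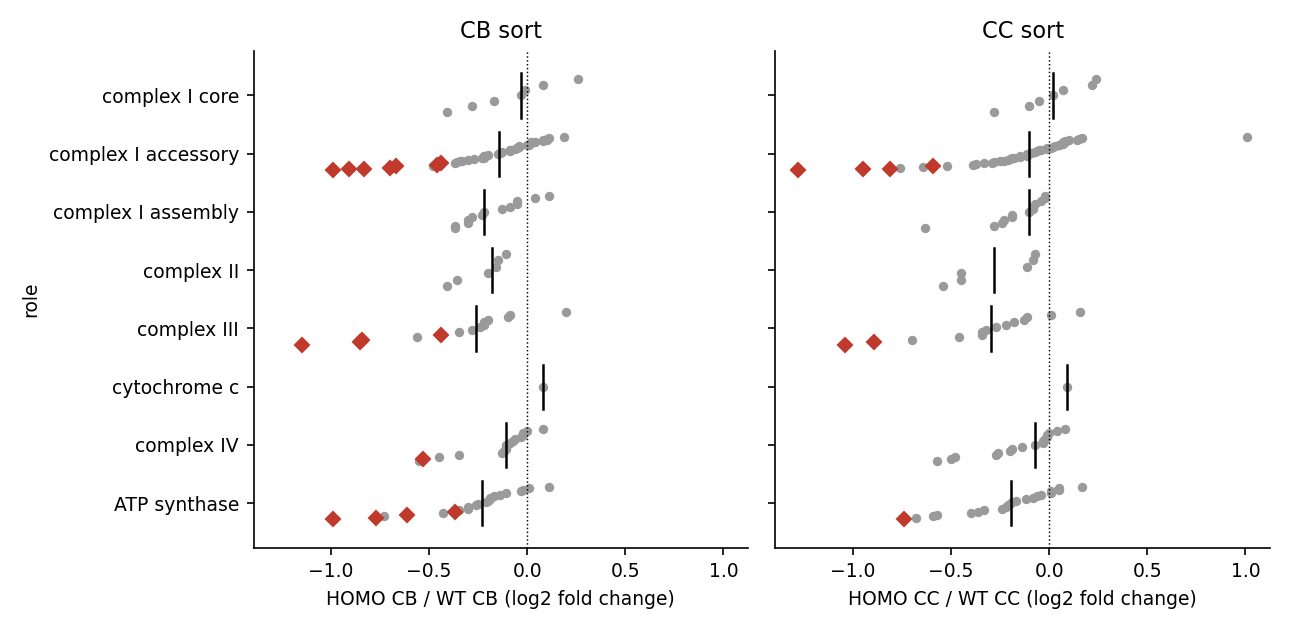
The log2 fold change of HOMO over WT (horizontal axis) for each member peak by role (rows), in CB (left) and CC (right); points within a role are spread vertically in order of value. Red diamonds are called peaks, grey points the rest, and black bars the medians (-0.26 for complex III and -0.03 for the complex I core in CB).

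The complex I core, the part that oxidises NADH and reduces coenzyme Q, had no called peak in either sort. Ndufv1, the NADH-binding flavoprotein, had 58.5, 65.3 and 63.7 CPM at its start in HOMO CB replicates 1 to 3, against 60.8, 64.5 and 66.4 CPM in WT CB replicates 1 to 3. The groups overlapped, and the log2 fold change was -0.03 ± 0.08 (SE). The Ndufv1 flank, 674 bp inside, had 6.68, 6.02 and 7.94 CPM in HOMO CB, against 9.12, 10.3 and 8.39 CPM in WT CB, without overlap, but its adjusted p was 0.248 in edgeR's quasi-likelihood test. Ndufs7 and Ndufs8, iron-sulfur subunits near the quinone site, lay on the other side of 0. Ndufs7 had 32.7, 43.0 and 34.7 CPM in HOMO CB, against 29.3, 29.0 and 34.5 CPM in WT CB, with overlapping groups and the highest fold change of the members in CB (log2 0.26 ± 0.11, edgeR adjusted p = 0.216). In CC it had 35.3, 36.6 and 37.7 CPM in HOMO CC, against 28.6, 30.7 and 33.5 CPM in WT CC, without overlap. It was not called there (log2 0.24 ± 0.11, edgeR adjusted p = 0.285). Ndufs8, the highest core peak, had 84.1, 86.5 and 90.4 CPM in HOMO CC, against 72.2, 73.0 and 79.5 CPM in WT CC, without overlap. Its log2 fold change in CC was 0.22 ± 0.09 with an edgeR adjusted p of 0.195, and with TMM factors from gene-end peaks alone it was called higher, at 0.29 and an adjusted p of 0.0442. Ndufs1, the largest core subunit, had a log2 fold change of -0.01 ± 0.11 in CB and -0.05 ± 0.11 in CC at its start, and Ndufv2, an iron-sulfur subunit of the NADH-oxidising module, -0.17 ± 0.08 and 0.07 ± 0.08.

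Among the accessory subunits of complex I, which surround and stabilise the core, the Ndufa8 flank had the lowest fold change in each sort. Ndufa8, an intermembrane-space subunit, had at its inner flank (chr2:36048455-36048955 in mm10, 633 bp inside the gene) 6.29, 4.75 and 3.9 CPM in HOMO CB replicates 1 to 3, against 10.2, 9.96 and 8.29 CPM in WT CB replicates 1 to 3. In CC the same peak had 3.84, 3.76 and 3.57 CPM in HOMO CC, against 9.16, 9.87 and 8.02 CPM in WT CC. The groups did not overlap in either sort. The fold was 0.505 in CB (log2 -0.99 ± 0.19, edgeR adjusted p = 0.00734) and 0.412 in CC (log2 -1.28 ± 0.20, adjusted p = 0.00541), and an end of Morn5 lies within 1 kb of the same peak. At the Ndufa8 start, on the window printed above, the values were 32.6, 32.8 and 32.8 CPM in HOMO CB, against 27.6, 28.3 and 35.4 CPM in WT CB, with overlap and a log2 fold change of 0.10 ± 0.12. The flank's call in CB was lost without HOMO CB replicate 2, HOMO CB replicate 3 or WT CB replicate 1, at log2 fold changes of -0.98, -0.82 and -0.92, and its call in CC was lost without HOMO CC replicate 2.

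Ndufb5, a subunit of the membrane arm, had at its flank (chr3:32737295-32737795, 488 bp inside, with an end of Mrpl47 within 1 kb) 9.82, 7.13 and 7.67 CPM in HOMO CB, against 16.1, 16.4 and 12.8 CPM in WT CB. In CC it had 9.17, 5.58 and 7.24 CPM in HOMO CC, against 12, 12.7 and 12.4 CPM in WT CC. No HOMO library reached a WT library in either sort, and the log2 fold changes were -0.91 ± 0.18 in CB (edgeR adjusted p = 0.00759) and -0.81 ± 0.18 in CC (edgeR adjusted p = 0.0224). Ndufa6, a matrix-side subunit of the LYR family that holds the mitochondrial acyl carrier protein, had at its flank (chr15:82353395-82353895, 646 bp inside) 9.04, 4.96 and 5.61 CPM in HOMO CB, against 11, 12.1 and 10.0 CPM in WT CB. In CC the values were 7.25, 4.65 and 4.76 CPM in HOMO CC, against 11.6, 10.6 and 8.72 CPM in WT CC. The shallow libraries numbered 1 were the highest of the HOMO group in both sorts, and the log2 fold changes were -0.83 ± 0.22 in CB and -0.95 ± 0.22 in CC, with edgeR adjusted p of 0.031 and 0.024. The Ndufa6 start, with the NRF1 core, stayed between 59.6 and 68.9 CPM in HOMO CB, against 62.3 to 69.7 CPM in WT CB.

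Ndufa10, a membrane-arm subunit with a nucleoside kinase fold, had at its flank (chr1:92473084-92473584, 491 bp inside) 7.73, 7.3 and 6.79 CPM in HOMO CB, against 12.2, 12.3 and 10.1 CPM in WT CB. In CC it had 6.95, 6.93 and 7.79 CPM in HOMO CC, against 11.4, 10.6 and 10.9 CPM in WT CC. The HOMO libraries lay close together and below all WT libraries, with log2 fold changes of -0.67 ± 0.16 in CB (edgeR adjusted p = 0.0176) and -0.59 ± 0.16 in CC (adjusted p = 0.0445). The CC call was lost whichever of the 6 CC libraries was left out. Ndufb9, another LYR-family subunit, fell at its start (chr15:58933459-58933959, shared with an end of Tatdn1), with 33.9, 30.3 and 34.4 CPM in HOMO CB, against 47.7, 45.4 and 40.9 CPM in WT CB. The groups did not overlap (log2 -0.44 ± 0.10, adjusted p = 0.0142), and in CC the log2 fold change was -0.28 ± 0.10 with an adjusted p of 0.138.

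Ndufa3, a small membrane-arm subunit, was named after its values had been seen, and it was called at both its start and its flank in CB. The start peak (chr7:3617052-3617552), which covers the printed window, had 23.3, 19.4 and 20.1 CPM in HOMO CB, against 30.7, 26.5 and 28.1 CPM in WT CB (log2 -0.46 ± 0.12, edgeR adjusted p = 0.0294). The flank had 7.07, 6.65 and 8.61 CPM in HOMO CB, against 11.9, 11.3 and 13.1 CPM in WT CB (log2 -0.70 ± 0.18, adjusted p = 0.0346). Both sets were free of overlap, yet the flank's call was lost whichever CB library was left out. Ndufa11, a membrane-arm subunit, stood on the higher side at an outer peak 683 bp outside its start that is shared with an end of Vmac, with 80.2, 74.3 and 73.8 CPM in HOMO CB, against 58.3, 66.8 and 73.8 CPM in WT CB. Its log2 fold change was 0.19 ± 0.09 with an edgeR adjusted p of 0.245, and it was called higher, at 0.31 and an adjusted p of 0.0345, with TMM factors from gene-end peaks alone. A weak peak at the 3′ end of Ndufa11, the lowest accessory peak, had 3.4, 2.76 and 1.98 CPM in HOMO CC, against 1.16, 1.5 and 1.19 CPM in WT CC, without overlap (log2 1.01 ± 0.32, adjusted p = 0.0914). It was called higher, at 0.98 and an edgeR adjusted p of 0.0278, with a replicate block for the number, and at 1.02 and 0.0312 with log2 library total as a covariate. The start of Ndufa9, a subunit near the quinone site, was at -0.34 ± 0.16 in CB, and that of Ndufs4, which is needed late in assembly, at -0.27 ± 0.17, and neither was called.

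The complex I assembly factors had no called peak, with edgeR adjusted p of at least 0.0654 in CB. The closest was the start of Ndufaf7, a methyltransferase that modifies a core subunit, with 45.1, 45.3 and 50.4 CPM in HOMO CB, against 60.2, 53.7 and 59.8 CPM in WT CB, without overlap (log2 -0.30 ± 0.09, adjusted p = 0.0654). Ndufaf8 held the highest assembly peak, shared with an end of Tepsin, at 92.6, 86.0 and 89.8 CPM in HOMO CB, against 97.9, 97.1 and 98.8 CPM in WT CB (log2 -0.13 ± 0.07, adjusted p = 0.327). Ndufaf1, which helps to build the membrane arm, was at -0.30 ± 0.13 at its higher peak in CB.

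Complex II, the succinate dehydrogenase shared with the citric acid cycle, had no called peak, and all 6 log2 fold changes lay below 0 in both sorts with TMM factors from all peaks. The inner flank of Sdhb, the iron-sulfur subunit, had 13.9, 12.6 and 14.1 CPM in HOMO CB, against 18.4, 19.4 and 16.2 CPM in WT CB, and 12.3, 9.05 and 12.6 CPM in HOMO CC, against 16.5, 14.0 and 15.6 CPM in WT CC. The groups did not overlap in either sort, and the edgeR adjusted p was 0.118 in CB and 0.109 in CC (log2 -0.41 ± 0.15 and -0.45 ± 0.15). Sdha, the catalytic flavoprotein, had 32.0, 37.9 and 36.1 CPM at its start in HOMO CB, against 37.0, 35.7 and 44.9 CPM in WT CB, with overlap. The membrane anchors Sdhc and Sdhd gave log2 fold changes of -0.11 ± 0.12 and -0.20 ± 0.10 in CB.

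Complex III, which hands electrons from coenzyme Q to cytochrome c, held 4 of the 16 called peaks in CB at 3 genes. Uqcrc2, the core 2 protein, had at its flank (chr7:120635839-120636339, 900 bp inside) 5.63, 4.91 and 4.42 CPM in HOMO CB, against 12, 11.6 and 9.22 CPM in WT CB. In CC it had 6.95, 4.47 and 3.8 CPM in HOMO CC, against 12.4, 9.27 and 7.96 CPM in WT CC. No HOMO library reached a WT library, and the fold was 0.449 in CB (log2 -1.15 ± 0.22, edgeR adjusted p = 0.00607) and 0.486 in CC (log2 -1.04 ± 0.22, adjusted p = 0.0178), the lowest fold of the members in CB. Its start also fell in CB, with 38.9, 31.8 and 35.3 CPM in HOMO CB, against 50.9, 46.8 and 45.3 CPM in WT CB (log2 -0.44 ± 0.10, adjusted p = 0.0168). The flank's call in CB was lost only without HOMO CB replicate 2, among the 6 CB libraries left out in turn.

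Cyc1, the cytochrome c1 that passes the electron on, had at its flank (chr15:76343913-76344413, 650 bp inside) 9.82, 7.3 and 6.5 CPM in HOMO CB, against 16.3, 13.1 and 11.5 CPM in WT CB. In CC it had 9.91, 5.4 and 6.53 CPM in HOMO CC, against 14.0, 13.0 and 11.5 CPM in WT CC. The groups stayed apart in both sorts (log2 -0.84 ± 0.21, edgeR adjusted p = 0.0228 in CB, and -0.89 ± 0.21, adjusted p = 0.0264 in CC). The Cyc1 start had 38.4, 24.5 and 25.5 CPM in HOMO CB, against 35.5, 33.1 and 31.6 CPM in WT CB, so the shallow HOMO library numbered 1 was the highest of all and the groups overlapped. Uqcrfs1, the Rieske iron-sulfur protein, fell at its flank (chr13:30544328-30544828, 738 bp inside), with 2.62, 4.15 and 3.5 CPM in HOMO CB, against 7.12, 5.61 and 6.37 CPM in WT CB (log2 -0.85 ± 0.20, adjusted p = 0.0199). In CC its values of 3.25, 3.35 and 3.78 CPM in HOMO CC lay below the 6.05, 5.12 and 5.94 CPM in WT CC, but the adjusted p was 0.0688. Uqcrq, a small subunit, held the highest complex III peak, shared with an end of Gdf9, with 107.0, 101.0 and 95.0 CPM in HOMO CB, against 79.1, 83.0 and 101.0 CPM in WT CB. Its log2 fold change of 0.20 ± 0.10 was not called (adjusted p = 0.254), and it was called higher, at 0.32 and an adjusted p of 0.0327, with TMM factors from gene-end peaks alone. The start of Uqcrh, the hinge protein, was at -0.10 ± 0.10 in CB.

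The gene for cytochrome c itself did not pass the test in either sort. Cycs had 59.9, 71.7 and 73.0 CPM in HOMO CB, against 57.1, 62.2 and 75.0 CPM in WT CB, and 51.9, 72.0 and 70.7 CPM in HOMO CC, against 57.8, 54.6 and 71.2 CPM in WT CC. The groups overlapped, with log2 fold changes of 0.08 ± 0.13 in CB and 0.09 ± 0.13 in CC.

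Complex IV, the terminal oxidase, had 1 called peak in CB and 0 of 17 in CC, where DESeq2 called 1. In CC, 3 of the 17 had an unadjusted p under 0.05 in edgeR, against 11795 of all 68689 peaks. The call in CB lay outside Cox4i1, a regulatory subunit, at a peak shared with an end of Emc8 (chr8:120667507-120668007, 468 bp outside), and it was named after its values had been seen. It had 15.1, 13.5 and 12.6 CPM in HOMO CB, against 19, 15.5 and 23.4 CPM in WT CB, so HOMO CB replicate 1 lay just below WT CB replicate 2 (log2 -0.53 ± 0.15, edgeR adjusted p = 0.0457). The Cox4i1 start was at -0.13 ± 0.12 in CB, with overlapping groups, and was not called. In CC the Cox4i1 start was at -0.26 ± 0.12, without overlap, and was not called either (edgeR adjusted p = 0.291). The starts of Cox5b, Cox6a1, Cox6b1, Cox7a2l, Cox7c, Cox8a and Ndufa4, all subunits of the oxidase or of its supercomplexes, gave log2 fold changes between -0.12 and 0.08 in CB, none called. Among the isoforms known from other tissues, the start of the testis isoform Cox6b2 was at 21.7, 23.8 and 27.6 CPM in HOMO CB, against 25.8, 26.5 and 27.2 CPM in WT CB. The muscle isoform Cox7a1 was at 26.1, 36.5 and 47.6 CPM in HOMO CB, against 35.5, 35.3 and 41.6 CPM in WT CB, and Ndufa4l2, known as a hypoxia-induced relative of Ndufa4, at 57.4, 48.7 and 49.8 CPM in HOMO CB, against 51.4, 53.1 and 52.6 CPM in WT CB. All 3 pairs of groups overlapped. The Cox6b2 peak is shared with an end of Fam71e2 and the Ndufa4l2 peak with an end of Stac3, and the strand at the Ndufa4l2 end is not in the promoter table.

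ATP synthase had 4 called peaks in CB and 1 in CC. Atp5c1, the gamma subunit that turns in the central stalk, had at its flank (chr2:10079544-10080044, 716 bp inside, with an end of Kin within 1 kb) 6.94, 7.84 and 7.85 CPM in HOMO CB, against 15.4, 17.3 and 13.2 CPM in WT CB. In CC it had 8.72, 7.82 and 7.66 CPM in HOMO CC, against 15.6, 13.9 and 10.7 CPM in WT CC. The 6 HOMO libraries lay between 6.94 and 8.72 CPM, below all 6 WT libraries. The fold was 0.503 in CB (log2 -0.99 ± 0.17, edgeR adjusted p = 0.00291) and 0.600 in CC (log2 -0.74 ± 0.17, adjusted p = 0.0227). Of the 16 calls in CB it was the only one kept whichever CB library was left out, while its CC call was lost without HOMO CC replicate 2, HOMO CC replicate 3, WT CC replicate 1 or WT CC replicate 2. The Atp5c1 start had 45.8, 45.8 and 47.1 CPM in HOMO CB, against 52.6, 56.2 and 61.7 CPM in WT CB, also without overlap, with an adjusted p of 0.0676 (log2 -0.30 ± 0.09).

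Atp5g2, which encodes a subunit c of the rotor ring, fell at a peak 857 bp outside its start (chr15:102671654-102672154), with 9.43, 6.51 and 7.44 CPM in HOMO CB, against 14.9, 11.6 and 12.1 CPM in WT CB (log2 -0.77 ± 0.18, edgeR adjusted p = 0.0189). The Atp5g2 start was level, at 0.01 ± 0.09. Atp5g1, the other subunit c gene with a member peak, held the highest ATP synthase peak and lay slightly above 0, with 93.9, 98.9 and 99.1 CPM in HOMO CB, against 82.2, 89.6 and 98.8 CPM in WT CB and overlapping groups (log2 0.11 ± 0.09). Atp5e and Atp5md were named after their values had been seen. Atp5e, the epsilon subunit of the stalk, had at its flank, 514 bp inside, 9.3, 6.92 and 6.77 CPM in HOMO CB, against 10.8, 10.7 and 12.3 CPM in WT CB (log2 -0.61 ± 0.17, adjusted p = 0.0443). Atp5md, a small membrane subunit also known as DAPIT, had at its start, which is shared with an end of Pdcd11 and covers the printed window, 46.9, 42.3 and 49.4 CPM in HOMO CB, against 57.8, 57.6 and 63.9 CPM in WT CB (log2 -0.37 ± 0.10, adjusted p = 0.0309). Atp5b, the catalytic beta subunit, was level, at 81.1, 82.2 and 79.9 CPM in HOMO CB, against 76.3, 90.6 and 82.4 CPM in WT CB, and Atp5o and Atp5k, of the peripheral stalk and the membrane part, gave -0.20 ± 0.11 and -0.21 ± 0.11.

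**Figure D5:**
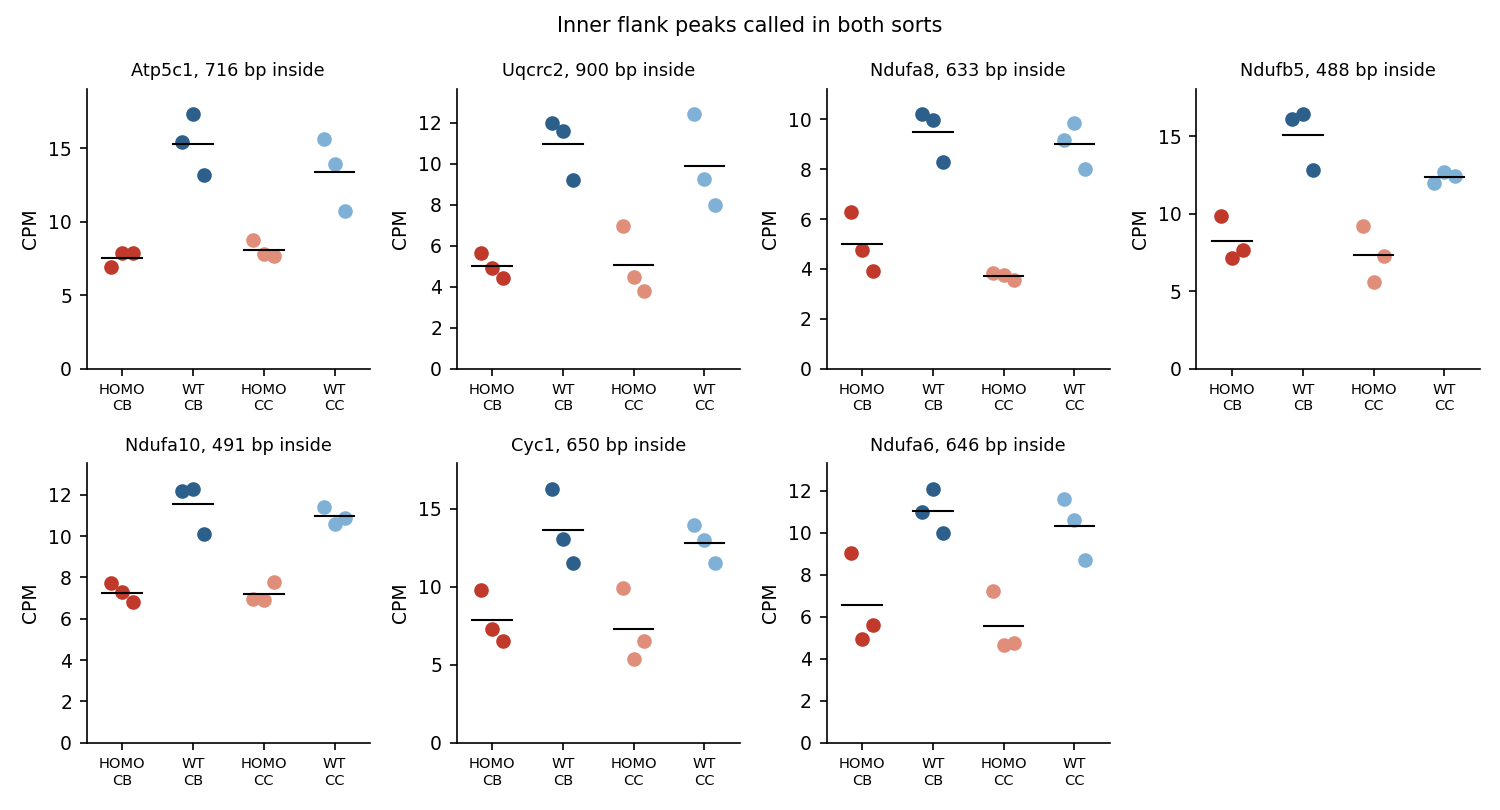
Accessibility in CPM (vertical axes from 0) of the 7 inner flank peaks called in both sorts, by group; points are libraries in the order of their numbers and bars are means of 3. In all 7 peaks every HOMO library lies below every WT library of its sort, as for Atp5c1 (6.94 to 7.85 CPM in HOMO CB against 13.2 to 17.3 CPM in WT CB).

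Between the sorts, few members were called, while most fold changes of CC over CB lay slightly below 0. The median log2 fold change was -0.11 in WT and -0.08 in HOMO, against -0.09 and -0.05 at other gene ends and -0.03 and 0.00 for all peaks. In WT 110 of the 126 values lay below 0 (87.3%), against 72.7% at other gene ends, and in HOMO 93 did (73.8%), against 64.5%. In WT, 2 of 126 were called, both lower in CC, by edgeR's quasi-likelihood test, against a background of 2.08% of all peaks called lower. The start of Atp5e (chr2:174463856-174464356, shared with an end of Prelid3b) had 52.6, 52.6 and 56.7 CPM in WT CC, against 67.3, 67.8 and 66.6 CPM in WT CB, without overlap (log2 -0.31 ± 0.09, edgeR adjusted p = 0.0391). A peak 887 bp outside Ndufb7, a membrane-arm subunit of complex I (chr8:83565621-83566121), had 5.05, 4.03 and 4.91 CPM in WT CC, against 8.0, 7.79 and 7.5 CPM in WT CB (log2 -0.73 ± 0.19, adjusted p = 0.0283). In HOMO the same Ndufb7 peak had 6.8, 4.95 and 4.44 CPM in HOMO CC, against 8.78, 7.19 and 8.12 CPM in HOMO CB, with an adjusted p of 0.053. In HOMO no member was called, against 2.44% of all peaks lower. An unadjusted p under 0.05 in edgeR was reached by 6 members, against 13445 of all 68689 peaks. DESeq2 called 1 member, lower in CC, against 3.04% of all peaks called lower. The WT count was 0 without WT CB replicate 1, WT CB replicate 2, WT CC replicate 1 or WT CC replicate 2. It was 1 without WT CB replicate 3. The share of all peaks called lower was 0.686%, 1.05%, 0.983%, 0.863% and 2.42% in the order of these fits.

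CB and CC libraries of the same genotype and number varied together, and with a term for genotype and number (a replicate block) the calls rose to 14 in WT and 6 in HOMO, all lower in CC. These are 11.1% and 4.76% of the members, against 11.8% and 9.68% of all peaks called lower in the same fit. In WT 9 of the 14 were start-centred, and in HOMO 1 was start-centred and 3 were outer flanks. Examples at starts are Atp5e (blocked log2 -0.31, edgeR adjusted p = 0.000298), Cox6b2 (-0.39, adjusted p = 0.000674), Atp5c1 (-0.24, adjusted p = 0.00663) and Uqcrc2 (-0.24, adjusted p = 0.0106) in WT and Ndufa8 (-0.30, adjusted p = 0.00232) in HOMO. Ndufb7, Ndufaf3 and the outer peak of Ndufa4l2 were called in both genotypes with the block.

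Other genes of mitochondrial respiration were read by the same rule. In CB, lower calls were made at 5 of 55 peaks of other assembly factors, 4 of 33 of nuclear regulators, 3 of 24 of the citric acid cycle, 2 of 18 of coenzyme Q synthesis, 6 of 37 of mitochondrial import and 11 of 94 of the mitochondrial ribosome, and no higher call was made in any of these lists. In CC the lower calls were 2, 0, 1, 3, 2 and 5 in the same order, again with 0 higher, and at cytosolic ribosomal protein genes 8 of 112 peaks fell in CB and 6 in CC. These shares sit beside the 9.24% of gene-end peaks called lower in CB and 5.66% in CC. Sdhaf1, which helps to fit iron-sulfur clusters into complex II, fell by 0.73 on the log2 scale in CB (edgeR adjusted p = 0.00647), and Surf1, an assembly factor of complex IV, fell by 0.46 in CB and fell by 0.52 in CC, with adjusted p of 0.0257 and 0.0214. In CB, Cox10, of heme A synthesis, fell by 0.50 (adjusted p = 0.0273), and Sco1, a copper chaperone of complex IV, fell by 0.40 (adjusted p = 0.0439). Gabpa, which encodes the ETS subunit of GABP, shares the region of the Atp5j start. A peak outside Gabpa fell by 0.67 in CB (adjusted p = 0.0248), while the Atp5j member peaks between them did not pass the test, at -0.11 ± 0.09 and -0.17 ± 0.13. Dld, the dihydrolipoyl dehydrogenase of the citric acid cycle, fell by 1.12 (adjusted p = 0.00314) at 1 peak in CB, and Coq8a, needed for coenzyme Q synthesis, fell by 1.02 (adjusted p = 0.000781).

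The start peaks were also read by their promoter letters. Over 55 start-centred members with a window, the 10 with the NRF1 core had a median log2 fold change of -0.09 in CB, against -0.14 in the 45 without it, and the 9 with the YY1 letters -0.22, against -0.11 in the 46 without. In CC the medians were -0.05 with the NRF1 core and -0.06 without, and -0.15 with the YY1 letters and -0.06 without. The GC content of the window had a median of 59.0% in members and 61.7% in other genes with a start peak, and it correlated with the fold change across the 55 peaks at a Pearson's r of 0.08 in CB and 0.15 in CC. Peaks of 1 table share their libraries and depth, and no test was run on these medians or correlations.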

How the data were processed

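The authors deposited unnormalised counts of reads per peak for the 12 libraries, on mm10. FastQC, BWA, deepTools and R 4.2.1 are named in the submitters' processing notes, with no role. How peaks were called, how reads were counted, and whether duplicates were removed or the Tn5 offset was applied are points not given in the sources used here. Groups and numbers were taken from the labels.

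Counts were fitted with edgeR 4.0.16 under R 4.3.3 (1 mean per group, TMM factors, robust quasi-likelihood, two-sided F tests), and DESeq2 1.42.0 was an alternative. The filter filterByExpr removed 0 of 68689 peaks, so all 126 members were tested, with p-values adjusted over all peaks by the Benjamini-Hochberg method and called at 0.05. CPM values are counts scaled to library size with TMM factors, all peaks are 501 bp long, and errors of log2 fold changes are standard errors with 3 libraries a group (median 0.20). The precision is set by these 12 libraries and by depth, which varied 7.09-fold. The test was checked on simulated data. Further software was Python 3.11.15 with pandas 2.3.3 and numpy 2.4.6, and data.table (1.17.8) in R, and figures were drawn with matplotlib 3.10.9.

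Gene ends came from RefSeq spans (GRCm38.p6, 21631 protein-coding genes) and strand from the promoter windows (17274 genes). Spans carry no exons here, so exonic and intronic parts were not told apart. The members and gene lists were chosen with earlier results of these data known. Named peaks are, in each comparison, at most 10 called members by smallest p, the highest peak at listed landmark and isoform genes, the highest and lowest peak of each complex, and the 3 largest fold changes each way; others are said to be named after their values had been seen.

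To see whether equal numbers mark pairs, each library's deviations from its group mean were correlated. CB and CC libraries of the same genotype and number correlated at 0.21 to 0.52 (6 pairs), against -0.34 to 0.12 for different numbers (12 pairs), so a replicate block for genotype and number stands beside the CC against CB counts. Within a sort, HOMO and WT libraries of equal number gave -0.01 to 0.40 (6 pairs), against -0.3 to 0.18 for different numbers (12 pairs), and were not treated as paired, since not every pair was above 0.1. One marker gene is not reported here.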

Additional observations from a re-analysis of the deposited data

How the results depend on the processing

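For HOMO against WT in CB, the 16 calls became 6 (4 lower, 2 higher; median log2 fold change -0.07) with TMM factors from gene-end peaks, 29 with a replicate block for the number, 25 with log2 library total as a covariate, 7 without both WT libraries numbered 2, 8 within 500 bp, 4 with 1 peak per gene (median -0.13), 10 at ends not shared with another gene, and 1 to 17 with 1 library left out in turn. For HOMO against WT in CC, the 7 calls became 11 with DESeq2, 25 with the replicate block (24 lower, 1 higher), 20 with the covariate (19 lower, 1 higher), 16 without both HOMO libraries numbered 1, 1 without both WT libraries numbered 2, 2 within 500 bp, 0 with 1 peak per gene, 4 at unshared ends and 0 to 10 with 1 library left out; the median was -0.04 with TMM factors from gene-end peaks. Of all peaks, the replicate block called 9.21% lower in CB and 6.6% in CC, and the covariate 8.59% and 5.71%. The main fit called 3.85% and 2.17%, and DESeq2 4.84% and 3.48%. At other gene ends the main fit called 9.24% lower in CB and 5.66% in CC. In every comparison, the counts within 500 bp are out of 92 members and those with 1 peak per gene out of 80. The counts at unshared ends leave out 55 of the 126 members. TMM factors from gene-end peaks gave 1.68% and 1.13%. Same-numbered HOMO and WT libraries of a sort correlated at -0.01 to 0.40. The labels do not call them paired, so these block counts are no paired result. For the difference of the effects the median of 0.05 ran from -0.01 (without WT CB replicate 3, a change of sign) to 0.08 with 1 library left out, and the replicate block called 0 members. For CC against CB in WT, the 2 calls became 0 with TMM factors from gene-end peaks (median -0.02), 0 with peaks under a log2 CPM of 2 left out (median -0.04), 14 with the replicate block, 0 without both WT libraries numbered 2, 1 within 500 bp, 1 with 1 peak per gene, 1 at unshared ends and 0 to 2 with 1 library left out. In HOMO, 0 became 1 with DESeq2, 6 with the replicate block, 1 with the covariate, 1 without both HOMO libraries numbered 1 and 0 to 1 with 1 library left out, and the median was -0.03 with TMM factors from gene-end peaks. Of all peaks in CC against CB, the main fit called 2.08% lower in WT and TMM factors from gene-end peaks called 1.06%. In HOMO, DESeq2 called 3.04% lower and the covariate 4.81%. The causes of the changes in these counts were not tested, beyond fewer libraries or peaks where an alternative removes them. Of single peaks, Atp5c1, Ndufa8, Ndufb5 and Uqcrc2 inner flanks kept their call in CB in the 9 other fits across all peaks, but 3 of these 4 lie outside 500 bp and 3 at shared ends. Of these 9 fits, 1, without a filter, repeats the main fit, since filterByExpr removed 0 peaks, and adds no support. The fit with genotype and number for the difference, the set without 3′ ends and the position split were chosen after seeing the data.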

Other observations

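The 3 X-linked genes of the rule each had a peak within 1 kb. Ndufa1, a complex I accessory subunit, had 8.91, 7.54 and 8.59 CPM in HOMO CB, against 11.8, 11.7 and 12 CPM in WT CB, and 6.21, 8.79 and 8.16 CPM in HOMO CC, against 11.9, 9.69 and 12 CPM in WT CC. The groups did not overlap in either sort, and edgeR's adjusted p was 0.0704 in CB and 0.0995 in CC (log2 -0.52 ± 0.16 and -0.50 ± 0.16). Ndufb11, another accessory subunit, and Cox7b, of complex IV, had log2 fold changes of -0.06 ± 0.18 and -0.11 ± 0.21 in CB.

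Cox5a, Cox7a2 and Atp5g3 had no peak within 1 kb of a span end but had one at 6, 82 and 28 bp from their listed promoter start. Cox5a, of complex IV, had 33.5, 33.4 and 33.7 CPM in HOMO CB, against 33.2, 27.3 and 36.3 CPM in WT CB. Cox7a2 and Atp5g3, of complex IV and the ATP synthase rotor ring, had log2 fold changes of -0.10 ± 0.10 and -0.16 ± 0.09 in CB. None of these 3 starts was called. The other 12 autosomal genes of the rule had no peak within 1 kb of a span end in the table used here, which is not known to hold every peak of the study; they include Ndufs3, Uqcrc1 and the isoforms Cox4i2, Cox6a2, Cox8b and Cox8c.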
